A study of Mus musculus with 17 samples.

Results

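Embryonic stem cells (ESC), the pluripotent cells of the early embryo kept in culture, were set against neural stem cells (NSC) that carry no transgene. The comparison rests on 3 of the 17 arrays of the series: 1 array of ESC, 1 of wild-type NSC after 24 h of treatment and 1 of wild-type NSC left untreated (0 h). The ESC are labelled untreated, and neither the ESC line nor the origin of the NSC is given in the sources used here. The wild-type NSC are the control for NSC that carry Oct4 under tetracycline control (TO_NSC, measured at 0, 6, 12 and 24 h), and the compound behind the treatment is not named in the labels. TO_MEF, TO_BMC and wild-type MEF (embryonic fibroblasts, with BMC for bone marrow cells) served only to place the genes, and all arrays hold mouse total RNA. The series asks what Oct4, the pluripotency factor encoded by Pou5f1, does alone in somatic cells.

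A probe of the Illumina BeadArray was kept where its detection p against the negative control beads was under 0.01 on at least 1 of the 3 arrays. This left 12899 of 25697 probes and, with 1 probe per gene, 8893 genes of the 16593 named on the array. Levels are log2 intensities after background correction, on which 1 unit is a 2-fold difference. A gene was called higher in ESC where ESC detected it at least 2-fold above each NSC array, and lower where both NSC arrays detected it at least 2-fold above ESC. An undetected value was first raised to the lowest detected signal of its array (5.41 in ESC, 5.43 in NSC at 24 h and 5.52 in NSC at 0 h), so a fold against it is a lower bound and is written "at least". The fold given is the smaller of the 2. Each condition was measured on 1 array, so these are fold rules with no test, and no value here measures variation between replicate cultures. Of the 78 named genes that were called and have a further kept probe, 28 had such a probe with a difference under 2-fold or of the opposite sign.

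By this rule 1728 genes (19.4% of those measured) were higher and 1758 (19.8%) were lower in ESC. These shares are the background for the list counts below. By the rule a gene detected only in ESC could not be called lower, and one detected only in NSC could not be called higher. A list count in 1 direction therefore describes the list and is no independent support. The wild-type NSC arrays differ in treatment and time and are no replicates. Between them the log2 difference of a gene had an SD of 0.379, against 1.86 for the difference of ESC from their mean. Uninduced TO_NSC differed from that mean with an SD of 0.657. Only 63 genes (0.708%) were at least 2-fold higher and 65 (0.731%) at least 2-fold lower in NSC at 24 h than at 0 h. The arrays were of similar depth, with 42.5% of probes detected in ESC, 42.3% in NSC at 24 h and 41.3% in NSC at 0 h. On the higher side Vac14 lay just inside the limit at 1.0008 log2 and Iqcb1 just outside at 0.9991. On the lower side Capn2 lay just inside at 1.0028 and Golga2 just outside at 0.9999.

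**Figure D1:**
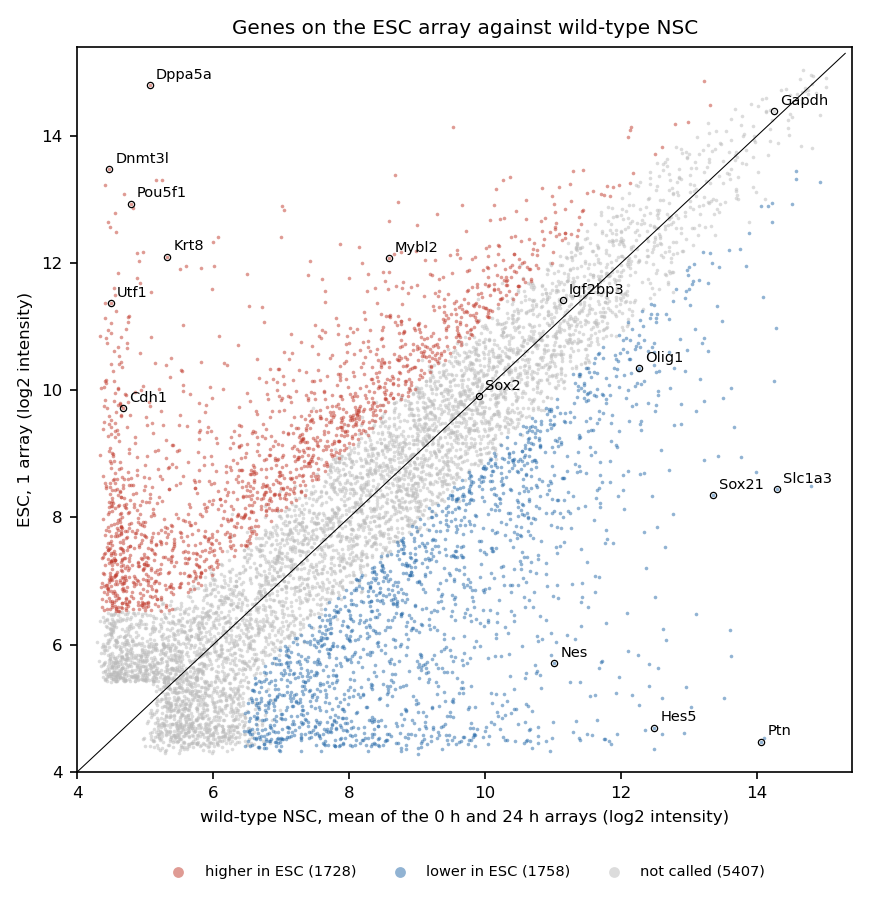
Each point is 1 of 8893 genes, with its log2 intensity on the ESC array on the y axis and the mean of both wild-type NSC arrays on the x axis. Red points (1728) were at least 2-fold higher and blue points (1758) at least 2-fold lower in ESC than on both NSC arrays, and the line marks equal levels. Dppa5a stands at 14.80 in ESC in the upper left corner, Ptn at 4.47 in ESC in the lower right, and Sox2 on the line.

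ESC hold their state with a network of transcription factors, led by Pou5f1 (Oct4), Nanog and Sox2, which keep their own genes active and differentiation genes quiet. Neural stem cells, of which radial glia are the form in the embryo, keep Sox2 but run it with neural partners, with Notch signalling through Hes genes, and with glial enzymes and matrix. The comparison therefore holds 2 stem cell states that are known to share some regulators and to differ in others.

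The pluripotency list had 30 genes on the array, of which 28 were detected and 27 were higher in ESC, with a median log2 difference of 4.67 against -0.02 over all genes. A listed gene that was detected only in ESC could pass in no other direction, so this count describes the list and is no independent support. The exception was Sox2. Nr0b1 and Prdm14 were on the array and were detected on none of the 3 arrays, at 4.49 and 5.33 in ESC. Dppa5a, an RNA-binding protein of pluripotent cells, had the highest bound of any gene: it read 14.80 in ESC, against 4.91 and 5.22 in NSC at 24 h and 0 h, at least 622-fold higher.

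The core factors themselves were far apart. Pou5f1 read 12.94 in ESC, against 4.59 and 4.98 in NSC at 24 h and 0 h, both undetected, so that it was at least 171-fold higher. Nanog, the homeobox factor that steadies self-renewal, read 12.15 in ESC, against 4.86 and 4.90, at least 99.4-fold higher. Esrrb, an orphan nuclear receptor of the same network, read 13.30 in ESC, against 5.45 in NSC at 24 h (just detected) and 4.88 at 0 h, at least 220-fold higher. The ESC level of each lay above every NSC and wild-type MEF array. Esrrb was also detected in uninduced TO_NSC, at 7.14, well under ESC.

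Sall4, a zinc finger factor, read 12.04 in ESC, against 5.12 and 4.68 in NSC at 24 h and 0 h, and was at least 91.6-fold higher. Utf1, a chromatin factor, read 11.37 in ESC, against 4.47 and 4.51, and was at least 57.8-fold higher. Zfp42 (Rex1), a widely used marker of naive ESC, read 9.81 in ESC, against 5.90 and 5.69, both detected, and was 15-fold higher. Fgf4, the growth factor that ESC make for themselves, read only 7.36 in ESC and was at least 3.58-fold higher than in NSC, where it was undetected. The weakest of the 27 was Rif1, a telomere and replication timing factor, at 6.68 in ESC and at least 2.23-fold higher.

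The Krüppel-like factors set ESC apart from NSC more than from fibroblasts. Klf2 read 11.17 in ESC and was undetected in NSC (5.06 at 24 h and 4.46 at 0 h), at least 50.3-fold higher, while wild-type MEF read 9.43 at 24 h and 9.63 at 0 h. Klf4 read 9.94 in ESC, against 5.40 (undetected) and 5.92 in NSC, 16.3-fold higher, and 9.63 and 9.31 in MEF. Klf5 read 12.41 in ESC, against 6.02 and 6.11 in NSC, 78.9-fold higher, and 8.55 and 8.54 in MEF. All 3 were therefore present in wild-type MEF and low or undetected in NSC.

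**Figure D2:**
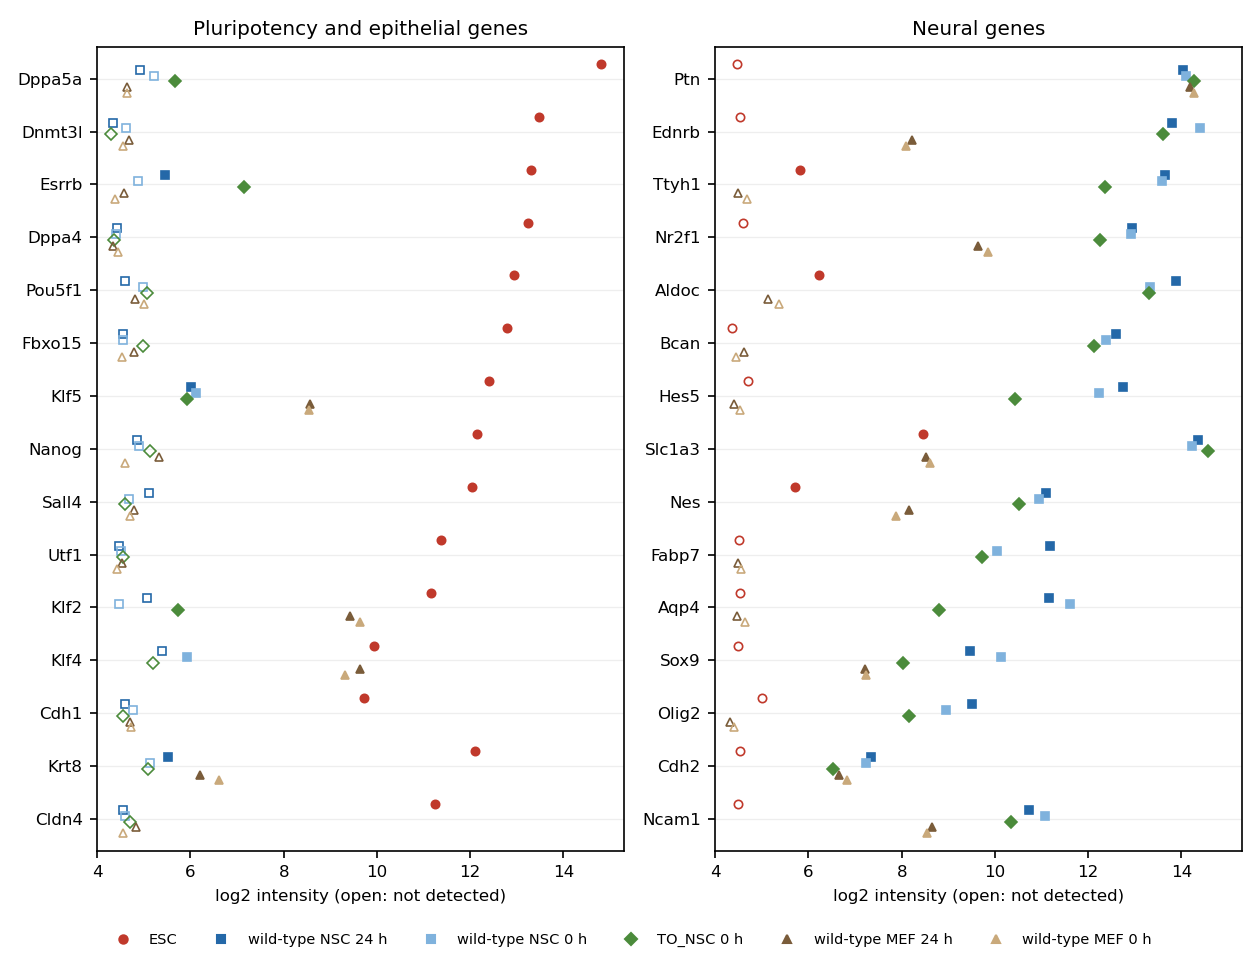
Levels (x axis, log2 intensity) of 15 pluripotency and epithelial genes on the left and 15 neural genes on the right, with 1 point per array and open points where the probe was not detected. On the left the ESC points stand at 9.72 or more and apart from the NSC points, and Klf2, Klf4 and Klf5 are also detected in wild-type MEF. On the right the ESC points stand to the left of the wild-type NSC points, 11 of them open, and the NSC points stand at 7.24 or more.

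The promoters of Nanog and Zfp42 are shown because letters that the factors of the network are known to bind can be read in them. They are RefSeq sequences on GRCm38.p6, the 250 bases before the transcription start, 5′ to 3′ on the strand of the gene. Of the 349 genes named by the rule, 260 were found in the promoter table. In Nanog (chr6:122707239-122707488, plus strand) capitals mark TTTGCAT, 1 base and ACAA, the form in which Oct4 and Sox2 bind side by side. In Zfp42 (chr8:43307010-43307259, minus strand) they mark the octamer ATGCAAAT that Oct4 and its relatives bind, read here on the opposite strand.
Nanog: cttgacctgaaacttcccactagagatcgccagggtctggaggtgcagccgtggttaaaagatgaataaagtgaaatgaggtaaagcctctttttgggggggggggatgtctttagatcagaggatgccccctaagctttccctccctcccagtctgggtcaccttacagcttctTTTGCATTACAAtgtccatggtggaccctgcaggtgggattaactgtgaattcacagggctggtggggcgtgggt
Zfp42: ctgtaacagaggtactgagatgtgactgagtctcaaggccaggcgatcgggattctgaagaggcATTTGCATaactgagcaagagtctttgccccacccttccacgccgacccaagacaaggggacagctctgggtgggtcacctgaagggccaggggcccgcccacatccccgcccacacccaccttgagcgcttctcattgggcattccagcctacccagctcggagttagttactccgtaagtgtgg

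The joined motif was rare: on either strand it stood in the 250 bases of 9 of 27025 RefSeq genes (0.0333%), and of 5 of the 7248 measured genes with a promoter (0.069%). Among genes higher in ESC 1 of 1381 held it, which was Nanog, and among genes lower in ESC 2 of 1414 held it, 1 of them Astn1. The octamer stood in 15 of 1381 promoters of genes higher in ESC (1.09%), 30 of 1414 of genes lower in ESC (2.12%) and 118 of 7248 of all measured genes (1.63%). The first letters of the joined motif also overlap the octamer read on the opposite strand. A match is a string of letters and not a bound site, and enhancers lie outside these windows.

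Germline genes formed another set of ESC levels. Of 21 listed genes on the array 13 were detected, with 10 higher and 1 lower in ESC. ESC detected 12 of the 21 and each NSC array 2, and those detected only in ESC could not be called lower. Tex19.1, which protects germ cells and placenta from transposons, read 12.56 in ESC, against 4.45 and 4.53 in NSC at 24 h and 0 h, at least 132-fold higher. Dazl, a germ cell RNA-binding protein, read 10.62 in ESC, against 4.50 and 4.60, at least 34.3-fold higher. Rhox5, an X-linked homeobox gene, read 12.18 in ESC, against 5.12 and 4.80, at least 101-fold higher, and its neighbours Rhox6 and Rhox9 were at least 8.79-fold and 24.8-fold higher. Ooep, an oocyte protein named among the 15 highest genes, was at least 141-fold higher at 12.65 in ESC. The exception was Tdrkh, a partner of Piwi proteins, which was undetected in ESC (5.26) and read 8.43 and 8.71 in NSC, at least 8.11-fold lower in ESC.

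ESC also showed an epithelial profile that was mostly undetected in NSC. Of 20 listed adhesion and keratin genes on the array 16 were detected, and 14 were higher and none lower in ESC. ESC detected 16 of the 20 and each NSC array 2. Those detected only in ESC could not be called lower, so the count describes the list. Cdh1 (E-cadherin), which joins ESC into compact colonies, read 9.72 in ESC and was undetected in NSC, at 4.59 and 4.76, at least 18.4-fold higher. Krt8 read 12.10 in ESC, against 5.52 and 5.12, 95.9-fold higher, and its partner Krt18 read 10.41, at least 29.7-fold higher. The claudins Cldn4 and Cldn6, which seal tight junctions, were at least 53.0-fold and 28.9-fold higher, while Cldn3 and Cldn7 read 6.16 and 6.09 in ESC and did not pass. Llgl2, a cell polarity protein among the 15 highest genes, read 12.87 in ESC and was at least 163-fold higher.

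NSC showed the other side of the cadherin pair. Cdh2 (N-cadherin) was undetected in ESC (4.53) and read 7.35 and 7.24 in NSC at 24 h and 0 h, at least 3.55-fold lower in ESC. Of 17 neural adhesion and matrix genes on the array 13 were detected, of which 12 were lower and none higher in ESC, with a median log2 difference of -5.18. ESC detected 3 of the 17 and each NSC array 13. Those detected only in NSC could not be called higher, so the count and median describe the list. Ncam1 was at least 39.8-fold lower in ESC, at 4.48 against 10.73 and 11.07 in NSC. Bcan (brevican), a matrix proteoglycan of the brain, was undetected in ESC at 4.36 and read 12.59 and 12.38 in NSC, at least 125-fold lower. Chl1 alone of the 13 did not pass, at 4.51 in ESC against 5.87 and 5.58 in NSC.

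**Figure D3:**
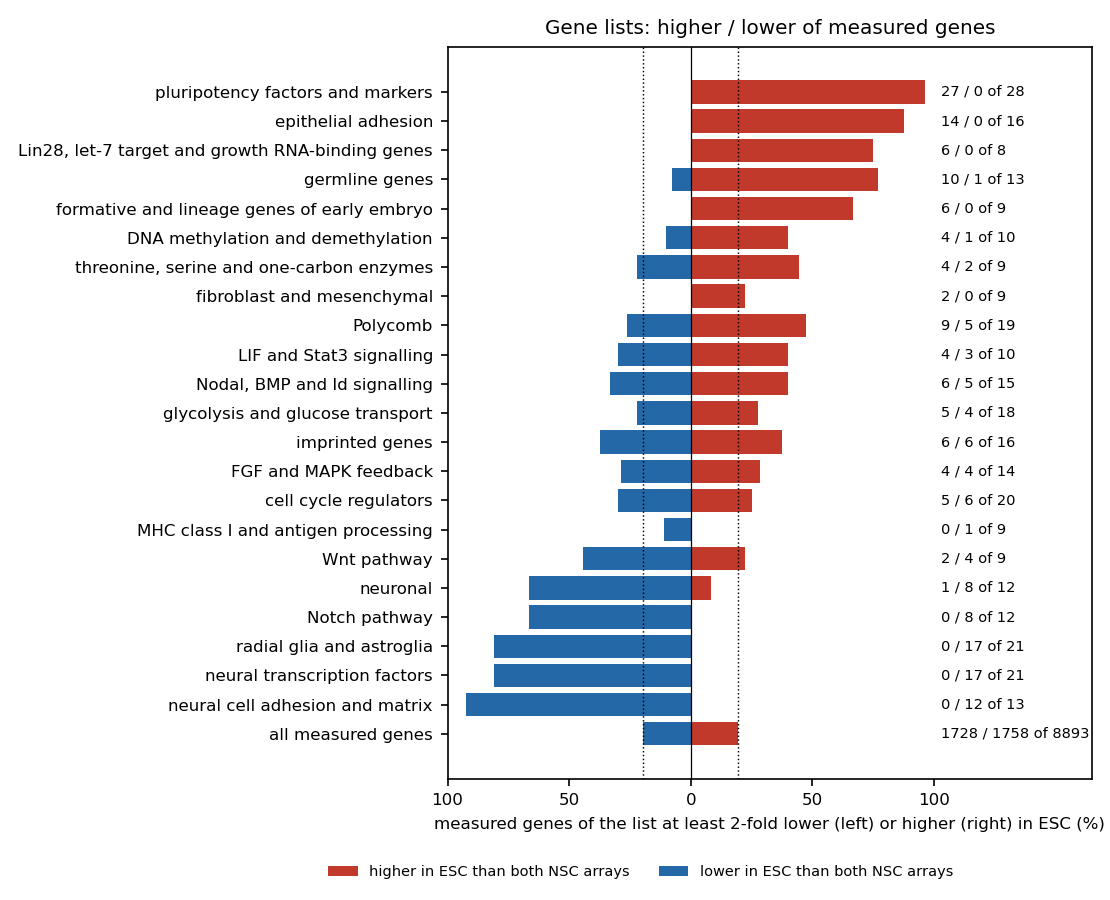
Bars give the share of each list's measured genes that was at least 2-fold higher (right, red) or lower (left, blue) in ESC than on both NSC arrays, with the counts at the right edge and dotted lines at the shares over all measured genes (19.4% and 19.8%). Lists with at least 8 measured genes are drawn. Pluripotency, epithelial and germline lists extend to the right, and neural adhesion, transcription factor, glial and Notch lists to the left.

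Of 27 neural transcription factors on the array 21 were detected on any of the 3 arrays, with 17 lower and none higher in ESC. In ESC itself 5 were detected, among them Olig1 at 10.35 and Sox21 at 8.35. The factors undetected in ESC could not be called higher, so the count describes the list. Nr2f1 (COUP-TFI), a nuclear receptor that patterns the forebrain, was undetected in ESC at 4.60 and read 12.94 and 12.92 in NSC at 24 h and 0 h, at least 182-fold lower in ESC. The nuclear factor Nfix read 5.34 in ESC, undetected, against 12.25 and 12.59, at least 114-fold lower, and Nfib was 57.8-fold lower. Sox9, which marks radial glia, was at least 16.6-fold lower, and Olig2 at least 11.6-fold lower. Pax6 and Sox1, both known in neural progenitors, were detected on none of the 3 arrays (Pax6 at 4.38 and 4.61 in NSC, Sox1 at 4.83 and 4.80). Neither was detected on any other of the 17 arrays, so absent RNA and a silent probe cannot be told apart.

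Radial glia and astroglia genes followed the same direction, with 17 of 21 detected genes lower and none higher in ESC, of 25 on the array. ESC detected 11 of the 25 and each NSC array 21, and those undetected in ESC could not be called higher. Nes (nestin), the filament protein of neural stem cells, read 5.71 in ESC, against 11.10 and 10.95 in NSC at 24 h and 0 h, 37.8-fold lower. Slc1a3, a glutamate transporter, read 8.45 in ESC, against 14.35 and 14.23, 54.9-fold lower. Ttyh1, a chloride channel, was 215-fold lower in ESC at 5.83 against 13.66 and 13.58. Fabp7, the fatty acid binding protein of radial glia, was at least 24.9-fold lower, and the water channel Aqp4 at least 53.9-fold lower. Gfap differed between the 2 NSC arrays, at 9.21 at 24 h and 7.65 at 0 h, with 4.40 (undetected) in ESC. Clu, Gja1, Msi2 and Glul did not pass; Clu read 10.74 in ESC, against 9.85 and 9.33 in NSC.

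Ptn (pleiotrophin), a secreted growth factor, was undetected in ESC at 4.47 and at 14.03 and 14.10 in NSC at 24 h and 0 h, at least 394-fold lower. It read 14.19 and 14.27 in wild-type MEF, so it was high in both NSC and MEF. Ednrb, an endothelin receptor, was at least 335-fold lower in ESC, Ntrk2, the receptor of the neurotrophin Bdnf, at least 117-fold, and Mt3, the brain metallothionein, at least 145-fold. Of the 1758 genes lower in ESC, 539 were undetected in ESC. Of these genes 191 (10.9%) were also undetected in wild-type MEF, TO_MEF at 0 h and TO_BMC at 0 h, against 5.55% of all measured genes, and Bcan, Hes5 and Mmd2 were among them. On the other side 530 of 1728 were undetected on both NSC arrays, and 223 (12.9%) on every somatic array at 0 h and on the treated wild-type arrays, against 5.42% of all measured genes. Both of these rules share the ESC and NSC arrays with the calls, so the shares describe the genes and test nothing.

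Markers of other cells were read on the same arrays. The neuronal list had 12 of 19 genes detected, and 8 were lower and 1 higher in ESC. Map2, a microtubule protein of neurons, was undetected in ESC at 5.25, against 11.87 and 12.00 in NSC at 24 h and 0 h. The higher gene was Stmn2, at 10.75 in ESC and undetected in NSC. Summed intensities of the list were 2310 in ESC, 6050 in NSC at 24 h and 6290 at 0 h. Neurod1, Snap25, Gad1 and Gad2 were detected on none of the 3 arrays. Of 9 oligodendrocyte genes on the array 1 was detected in ESC and 4 in NSC at each time (Mbp at 7.59 and 7.66 by the probe used, while its other probe was detected in ESC at 6.11 and not in NSC), with summed intensities of 304 in ESC, 1440 in NSC at 24 h and 1690 at 0 h. Whether such cells take part in the NSC levels was not tested, and in bulk RNA fewer cells of a type and less RNA per cell cannot be told apart.

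Of 17 fibroblast markers on the array 6 were detected in ESC and 6 in NSC at each time, with a summed intensity of 9140 in ESC, 2400 in NSC at 24 h and 2730 at 0 h, against 124000 in MEF at 24 h and 112000 at 0 h. Most of each sum in ESC and NSC came from Acta2, given below, so these sums follow that gene more than the list. Col1a1 and Lox were undetected in ESC (Col1a1 at 5.02) and in NSC, and read 13.33 and 13.38 in untreated MEF. Thy1 read 7.27 in ESC and 7.06 and 7.80 in NSC, and Acta2, a smooth muscle actin, read 12.99 in ESC, against 10.48 and 10.73 in NSC, 4.77-fold higher, and Tagln, an actin-binding protein of smooth muscle, was at least 2.90-fold higher. None of 9 myeloid genes was detected on any of the 3 arrays (Tyrobp at 4.64 in ESC), although Laptm5, a lysosomal protein best known from blood cells, read 13.09 in ESC and was undetected in NSC, at least 190-fold higher. Of 8 endothelial genes on the array Esam and Egfl7 were higher in ESC, and Cdh5 was undetected.

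Genes that mark the first lineages were partly present in ESC. Of 20 on the array 9 were detected, with 6 higher and none lower in ESC. ESC detected 9 of the 20, NSC 3 at 24 h and 2 at 0 h, and those detected only in ESC could not be called lower. Tfap2c, a factor of trophoblast and germ cells, read 11.15 in ESC, at least 49.5-fold higher, and the endoderm factors Gata6 and Sox17 read 8.44 and 7.08, at least 7.56-fold and 2.96-fold higher. Otx2, a head and early epiblast factor, read 8.58 in ESC, against 5.67 and 5.92 in NSC, 6.34-fold higher. Fgf5, Eomes, Mixl1, Foxa2 and Afp were detected on none of the 3 arrays.

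Signalling genes of the Nodal and BMP families lay on both sides. Of 15 detected genes 6 were higher and 5 lower in ESC, against 19.4% and 19.8% of all measured genes. Ligands and antagonists of the Nodal branch were higher in ESC: Nodal at least 13.4-fold, Lefty2 at least 11.3-fold and Lefty1 at least 5.22-fold, all undetected in NSC. Bmp4 read 10.39 in ESC, against 5.76 and 6.64 in NSC at 24 h and 0 h, 13.5-fold higher, and the inhibitor Smad6 was at least 2.70-fold higher, while the ligand Bmp7 was 2.61-fold lower. The receptor Bmpr1b was undetected in ESC (4.70) and read 9.38 and 9.32 in NSC, at least 15-fold lower, and Bmpr1a was 4.32-fold lower by the probe used. The other Bmpr1a probe did not separate the cells, at 7.50 in ESC, against 7.71 and 7.58 in NSC. Acvr2b, Smad2 and Smad3 did not pass. Among the Id proteins, which block basic helix-loop-helix factors, Id1 was 3.27-fold higher, Id2 5.67-fold lower and Id4 at least 14.6-fold lower in ESC, while Id3 (7.19 in ESC, 8.48 and 7.84 in NSC) did not pass.

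The LIF pathway keeps mouse ESC in culture through Stat3. Its receptor Lifr was 2.17-fold higher in ESC, at 6.82 against 5.71 and 5.54. Over the list 4 of 10 detected genes were higher and 3 lower, against 19.4% and 19.8% of all measured genes. Stat3 read 9.30 in ESC, against 11.57 and 11.19 in NSC, 3.71-fold lower by the probe used, while another of its probes read 7.80 in ESC, against 8.19 and 7.97. The kinase Jak2 was 8.01-fold lower and Jak1 at least 3.05-fold lower. Of the feedback and target genes, Socs2 was 5.66-fold, Socs3 3.31-fold and the kinase Pim3 3.22-fold higher, and Cish and Pim1 did not pass. Another Pim1 probe read 6.54 in ESC and was undetected in NSC, at 4.26 and 4.42, and by it Pim1 would pass as higher. Socs3 read 10.75 in ESC, 9.03 in NSC at 24 h and 7.38 at 0 h, so the NSC arrays differed on it.

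Notch genes were lower in ESC or did not pass. Of 18 on the array 12 were detected, 8 lower and none higher. ESC detected 8 of the 18 and each NSC array 12, and those undetected in ESC could not be called higher. The receptor Notch1 read 6.18 in ESC, against 10.42 and 10.25 in NSC at 24 h and 0 h, 16.8-fold lower, and the ligand Dll1 was 14.5-fold lower. Hes5, the Notch target that keeps neural progenitors from differentiating, was undetected in ESC at 4.70 and read 12.74 and 12.23 in NSC, at least 113-fold lower. Hey1 was 42.7-fold lower and Hes6 12.0-fold lower. Hes1, a Notch target that ESC also use, lay the other way without passing, at 8.75 in ESC against 7.19 and 8.24.

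The promoter of Hes5 (chr4:154960673-154960922, plus strand, RefSeq, GRCm38.p6) is shown because it holds the letters GTGGGAA, bound by the Notch partner Rbpj, on both strands, in capitals.
Hes5: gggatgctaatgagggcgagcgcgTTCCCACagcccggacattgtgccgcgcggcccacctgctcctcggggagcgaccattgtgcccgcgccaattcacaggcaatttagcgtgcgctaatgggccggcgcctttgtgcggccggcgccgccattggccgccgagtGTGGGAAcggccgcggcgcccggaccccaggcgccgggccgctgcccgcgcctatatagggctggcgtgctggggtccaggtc

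These 7 letters stood in 96 of 1414 promoters of genes lower in ESC (6.79%), 84 of 1381 of genes higher in ESC (6.08%) and 465 of 7248 of all measured genes (6.42%). Of the 119 genes at least 16-fold higher in ESC 91 had a promoter, and 19 of these (20.9%) held fewer than 5 CpG in 250 bases, against 20 of 142 (14.1%) for genes at least 16-fold lower and 533 of 7248 (7.35%) for all measured genes, a difference that was not tested. In these shares, and in the CpG medians given below, a gene with several starts counts by the window with most CpG. The Nanog window shown has 3 CpG, the window of another Nanog start 2, and the Hes5 window 32.

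Of 14 detected genes of FGF signalling and its feedback 4 were higher and 4 lower in ESC. Over all measured genes the shares were 19.4% and 19.8%. Egfr was detected at 6.09 in ESC and was 24-fold lower there than in NSC, Pdgfra was 12.4-fold lower and Fgfr3 at least 7.04-fold lower. The feedback inhibitor Spry4 was 4.96-fold higher and the phosphatase Dusp4 at least 6.23-fold higher. Dusp6, Etv4 and Etv5, targets of the MAPK cascade, read higher in ESC than on both NSC arrays, but the NSC arrays differed on each and none passed (Dusp6 at 11.43 in ESC, 10.90 in NSC at 24 h and 8.89 at 0 h). Fgfr1, Fgfr2 and Spred1 did not pass, and Spry1 and Spry2 were not detected. In the Wnt list of 9 detected genes, the ligands Wnt7b and Wnt5a were 24.9-fold and at least 15.5-fold lower, and the receptor Fzd7 was 2.72-fold higher.

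Several gene families had members on opposite sides, in data where 19.4% of all measured genes were higher and 19.8% lower. The families and pairs shown were picked with the calls known. Polycomb proteins keep developmental genes silent through histone marks, and 9 of 19 detected genes were higher and 5 lower in ESC. Epop and Mtf2, accessory subunits of the methylating complex, were 21.4-fold and 11.8-fold higher, and its core members Suz12, Ezh2 and Eed 4.31-fold, 2.35-fold and 2.18-fold. Within the other complex Cbx7 read 9.98 in ESC and was undetected in NSC, at least 22.0-fold higher, while Cbx8 was undetected in ESC and at least 3.17-fold lower. Pcgf6 was 7.23-fold higher and Bmi1 (Pcgf4) 3.01-fold lower, and Phc1 was 2.73-fold higher and Phc2 4.98-fold lower.

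Of 10 detected genes of DNA methylation and demethylation 4 were higher and 1 lower in ESC, against 19.4% and 19.8% of all measured genes. Dnmt3l, the inactive partner of the de novo enzymes, read 13.48 in ESC, against 4.33 and 4.62 in NSC at 24 h and 0 h, at least 248-fold higher. The enzyme Dnmt3b read 12.90 in ESC, against 6.83 and 7.19, 52.2-fold higher. The maintenance enzyme Dnmt1 did not pass, at 10.17 against 9.86 and 9.64. Dnmt3a was detected on none of the 3 arrays. The stress-response genes Gadd45a and Gadd45b were 13.1-fold and 6.48-fold higher, and the methyl-CpG binder Mbd1 was 2.61-fold lower.

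**Figure D4:**
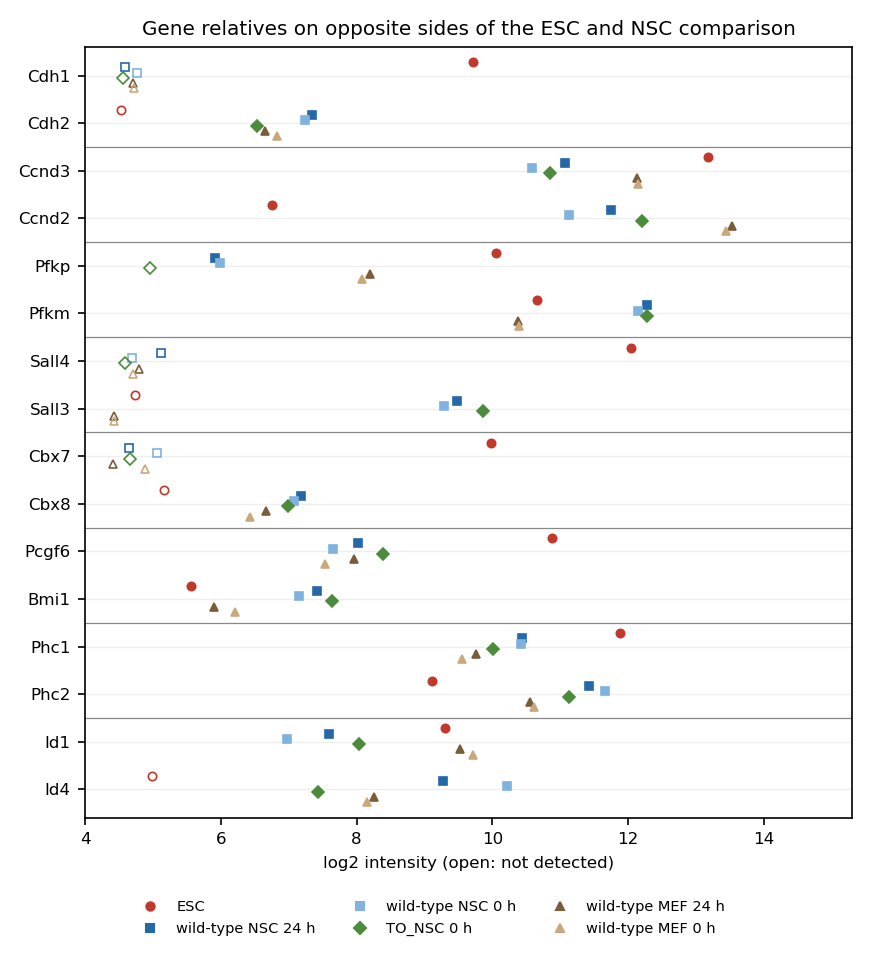
Levels (x axis, log2 intensity) of 8 pairs of related genes on 6 arrays, with open points where the probe was not detected and lines between pairs. In each pair the upper gene was called higher and the lower gene called lower in ESC than on both NSC arrays. The pairs were picked for their opposite calls, so the figure describes them and tests nothing. Relatives that did not pass, such as Ccnd1, Sall1 and Id3, are not drawn. Only positions along a row can be compared, since each gene has its own probe.

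The D cyclins Ccnd3 and Ccnd2 lay on opposite sides. Ccnd1 did not pass, at 11.04 in ESC, against 12.89 and 11.31 in NSC at 24 h and 0 h. Ccnd3 read 13.18 in ESC, against 11.07 and 10.59 in NSC at 24 h and 0 h, 4.32-fold higher, and Ccnd2 read 6.75, against 11.74 and 11.12, 20.7-fold lower. Ccne1 and the phosphatase Cdc25a, both of which drive entry into S phase, were 7.57-fold and 7.65-fold higher. The inhibitors Cdkn2c and Cdkn2b were at least 18.9-fold and 7.51-fold lower, and Rb1, the retinoblastoma protein, 7.78-fold lower. Cdk1 was 2.39-fold higher by the probe used, while its other probe, near background, was undetected in ESC (4.91) and read 5.65 and 5.77 in NSC. Over the list 5 of 20 detected genes were higher and 6 lower, against 19.4% and 19.8% of all measured genes, with no common direction.

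Among metabolic genes the glucose transporter Slc2a3 read 13.38 in ESC, against 8.83 and 8.52 in NSC at 24 h and 0 h, 23.4-fold higher. Hk2 and Pfkp, hexokinase and phosphofructokinase isoforms, were 12.8-fold and 16.8-fold higher, while Pfkm was 2.80-fold lower. Aldoc, the brain aldolase, read 6.23 in ESC, against 13.89 and 13.33, 137-fold lower. Gapdh and Pkm did not pass, with Gapdh at 14.39 in ESC against 14.19 and 14.32. Of 18 detected genes 5 were higher and 4 lower, against 19.4% and 19.8% of all measured genes. In the one-carbon list Shmt1 was 10.2-fold higher and Mthfd2 4.45-fold higher, and the serine enzyme Phgdh 2.69-fold lower.

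Imprinted genes are read from the allele of a given parent. Of 16 detected 6 were higher and 6 lower in ESC, against 19.4% and 19.8% of all measured genes. Igf2, a fetal growth factor, read 11.92 in ESC, against 5.05 (undetected) and 5.98 in NSC at 24 h and 0 h, 61.1-fold higher. Grb10 and Phlda2, which limit growth, were 24.9-fold and at least 24.9-fold higher. On the lower side Nnat read 6.07 in ESC, against 12.43 and 12.90, 81.9-fold lower, Nap1l5 was at least 20.1-fold lower and Ndn 11.7-fold lower. Lin28a, which blocks let-7 microRNAs, was at least 10.9-fold higher, and Igf2bp1, a let-7 target, at least 46.7-fold. Igf2bp3 did not differ by the rule, at 11.42 in ESC and 11.24 and 11.04 in wild-type NSC, but was undetected in TO_NSC at 0 h (4.61). Of 9 detected antigen presentation genes none was higher and Tap2 was lower, against 19.4% and 19.8% of all measured genes. Of 27 Hox genes on the array 2 were detected and none passed.

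Genes that both cell types share and fibroblasts lack were selected next: detected on the ESC array and both NSC arrays, undetected on both wild-type MEF arrays, and with the lowest of the 3 at least 2-fold above MEF. There were 54 of them (0.607% of measured genes), of which 8 were also higher and 22 lower in ESC than in NSC. Undetected levels in MEF make each fold over MEF a lower bound. Among the arrays that the choice did not use, 49 of the 54 were undetected in TO_MEF at 0 h and 51 (94.4%) were detected in TO_NSC at 0 h. Ppp1r1a, Tmem87a, Sema4a, Cbln1 and Rad51c were the ones detected in TO_MEF at 0 h. Of all measured genes 76.5% were detected in TO_MEF, 81.5% in TO_NSC and 75.5% in TO_BMC at 0 h. On TO_BMC at 0 h 35 were undetected, so 33 were found in neither uninduced fibroblasts nor uninduced bone marrow cells.

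Sox2, the factor that ESC and NSC are known to share, read 9.91 in ESC and 9.84 and 9.98 in NSC at 24 h and 0 h. It was undetected in wild-type MEF, at 4.57 and 4.70, and the lowest of the 3 was at least 20.9-fold above MEF. It was also undetected on all 4 TO_MEF and all 4 TO_BMC arrays, and lay between 8.55 (6 h) and 9.13 (24 h) on the 4 TO_NSC arrays. Its other probe gave a different balance: 6.54 in ESC, against 8.95 and 8.80 in NSC, and undetected in MEF. Both probes thus place Sox2 in ESC and NSC and not in MEF. Only the probe with more signal gives equal levels, and the other reads 2.33 log2 lower in ESC than the NSC mean.

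The Sox2 promoter (chr3:34649745-34649994, plus strand, RefSeq, GRCm38.p6) is shown for its 27 CpG, in capitals, beside the CpG-poor window of Nanog.
Sox2: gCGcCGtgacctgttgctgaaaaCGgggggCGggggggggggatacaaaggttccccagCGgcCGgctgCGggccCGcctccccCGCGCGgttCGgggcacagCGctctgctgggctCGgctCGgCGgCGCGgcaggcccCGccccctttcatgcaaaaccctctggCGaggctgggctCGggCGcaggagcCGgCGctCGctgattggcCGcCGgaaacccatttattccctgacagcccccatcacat

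The median over the 37 shared genes with a promoter was 21 CpG in 250 bases, against 17 over all measured genes, 16 over genes higher in ESC and 18 over genes lower in ESC.

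Hap1, which binds huntingtin, read 10.95 in ESC and 11.43 and 11.21 in NSC at 24 h and 0 h, at least 45.2-fold over MEF. It was undetected in TO_MEF at 0 and 6 h but detected there at 12 h (6.28) and 24 h (7.66). Its other 2 probes read 6.69 and 5.45 in ESC and were undetected in NSC, so that by them it would not be shared. Nup210, a subunit of the nuclear pore, read 10.41 in ESC and 10.59 and 10.99 in NSC, at least 31-fold over MEF. Sh3gl2 (endophilin) and Fcho1, both of the endocytic machinery, were at least 12.3-fold and 15.2-fold over MEF and did not differ between ESC and NSC by the rule. The other 2 Sh3gl2 probes were detected in ESC and in NSC at 24 h. Both were undetected in NSC at 0 h (5.44 and 5.30), so that by them Sh3gl2 would not be shared. Igdcc3, a membrane protein with immunoglobulin domains, read 8.52 in ESC and 8.17 and 8.37 in NSC.

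Other shared genes were detected in ESC at a lower level than in NSC. Olig1, an oligodendrocyte lineage factor, read 10.35 in ESC, against 12.68 and 11.86 in NSC at 24 h and 0 h, 2.84-fold lower, while its relative Olig2 was undetected in ESC. Sox21, a repressing relative of Sox2, read 8.35 in ESC, against 13.23 and 13.49, 29.3-fold lower, and was at least 7.46-fold over MEF. Its other 2 probes were undetected in ESC. The kinase subunit Camk2b and the ion pump subunit Atp1b2 were 9.22-fold and 9.97-fold lower in ESC. Tmem87a alone of the 15 with the highest bounds over MEF was higher in ESC, 2.16-fold. It was undetected in wild-type MEF but detected on all 4 TO_MEF arrays, at 7.22 to 7.60, near its 7.79 and 7.91 in NSC. Ppp1r1a was also detected on all 4 TO_MEF arrays, at 6.14 to 7.32. Of 25 candidate genes on the array that are often named for both cell types 20 were detected, and Sox2 and Jam2 met the rule. For Jam2, 1 of its other 3 probes was detected in wild-type MEF, at 5.89 at 24 h and 5.85 at 0 h, and the other probes were not. Among the Sall family Sall4 was higher, Sall2 and Sall3 were 28.9-fold and at least 14.7-fold lower in ESC, and Sall1 read 7.89 in ESC and 7.53 and 8.18 in NSC and was also detected in MEF by that probe, though not by its other probe (6.63 in ESC, 6.97 and 7.41 in NSC).

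**Figure D5:**
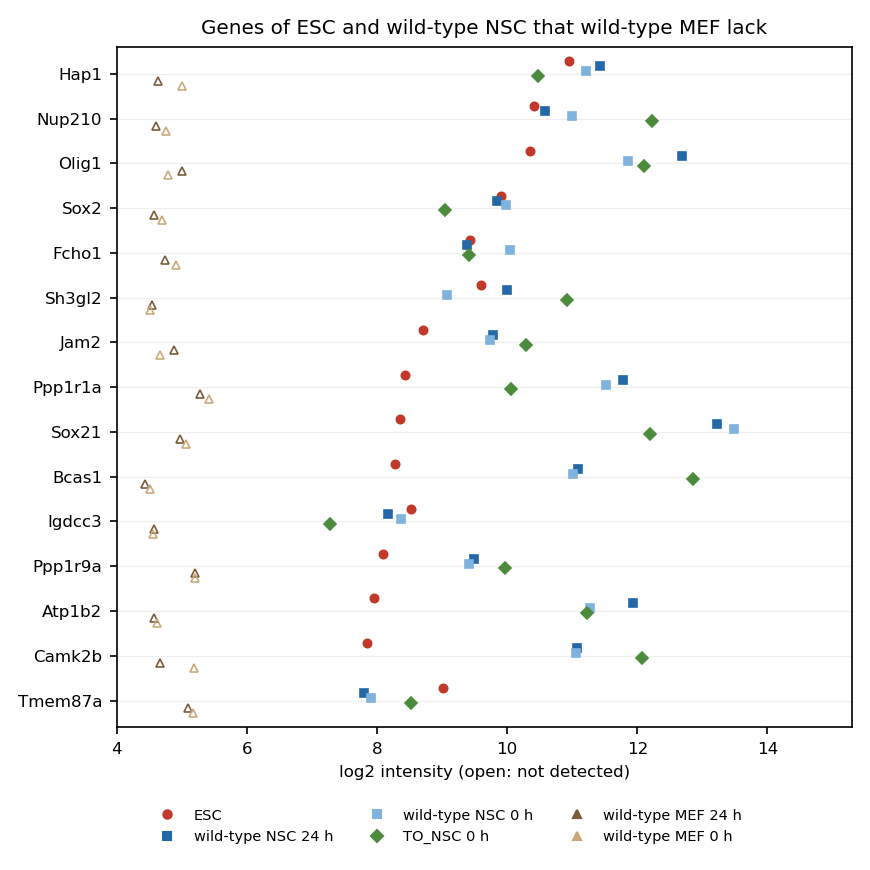
Levels (x axis, log2 intensity) of the 15 genes with the highest bounds over wild-type MEF among the 54 shared genes, with 1 point per array and open points where the probe was not detected. The wild-type MEF points are all open and below 5.5, and the ESC, NSC and TO_NSC points stand at 7.28 or more. TO_MEF is not drawn, and Ppp1r1a and Tmem87a were detected in it at 0 h. Hap1 and Ppp1r9a were detected in TO_MEF at 12 and 24 h, and Fcho1, Jam2 and Sox21 at 24 h. ESC and NSC points lie together for Hap1, Nup210, Sox2, Fcho1 and Igdcc3, and ESC points stand to the left for Sox21, Ppp1r1a and Camk2b.

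The same genes were followed in TO_NSC, whose 4 arrays took no part in the calls. At 24 h of Oct4 induction 752 of all measured genes (8.46%) were at least 2-fold higher and 799 (8.98%) at least 2-fold lower than at 0 h, by the same fold rule and with 1 array at each time. Among the 1728 genes higher in ESC 74 (4.28%) were higher and 307 (17.8%) lower at 24 h. Among the 1758 genes lower in ESC 316 (18%) were higher and 128 (7.28%) lower. The shares therefore lay on the side away from ESC for both groups, although the median change was only -0.01 log2 in the first group and 0.30 log2 in the second. In TO_NSC at 0 h 67% of the first group and 97.4% of the second were detected, against 81.5% of all measured genes. A gene undetected at 0 h could not be called lower, so the groups had unlike room to move. Whether choosing the groups by wild-type NSC levels shaped these shares was not tested. In wild-type NSC at 24 h against 0 h the same groups held 15 and 16 genes at least 2-fold higher and 1 and 28 lower. These arrays also took part in the calls, so those counts are limited by the rule.

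Pou5f1 itself was the listed pluripotency gene that was higher in TO_NSC at 24 h: it was undetected at 0 h (5.07) and read 10.24, 11.20 and 10.22 at 6, 12 and 24 h, under the 12.94 of ESC. Whether the probe reads the transgene, the resident gene or both was not tested. Nanog stayed undetected at all 4 times, at 5.13, 5.35, 5.30 and 5.40. Esrrb read 7.14, 7.34, 7.38 and 6.05 over the same times. Of the 120 named genes higher in ESC 4 were at least 2-fold higher at 24 h, namely Pou5f1, Fzd7, Sfrp1 and Pim3, and 12 were lower, among them Cdk1, Mybl2, Tyms and Hk2. Mybl2, a cell cycle transcription factor, read 9.45, 9.44, 6.71 and 5.69 at 0, 6, 12 and 24 h, against 12.08 in ESC. Of the 126 named genes lower in ESC 18 were higher at 24 h and 15 lower. Hes5 read 10.42, 9.71, 11.55 and 12.31 over the times, against 4.70 in ESC, and the myelin enzyme Cnp read 8.28, 7.98, 10.31 and 11.51, against 6.29 in ESC. Tnc (tenascin C), a matrix protein, lay the other way at 10.64, 11.35, 9.36 and 6.36, against 5.09 (undetected) in ESC.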

How the data were processed

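The arrays hold biotin-labelled cRNA, 1 array per condition and 17 in all. The deposited table gives an intensity per probe and a detection p-value as the authors exported them, with no normalization. The authors' series matrix gives log2 values. BeadStudio 3.2, RMA and lumi are named per the submitters' processing notes, and their order and settings are not given in the sources used here. Every column of values was assigned to a condition (0 left over). Symbols came from the platform annotation (23978 probes with 1 symbol, 1719 with none) and were looked up by Entrez number in RefSeq.

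Intensities were corrected with normexp, using negative-control moments inferred from the detection p-values, with an offset of 16, and quantile normalized over 17 arrays (limma 3.58.1, R 4.3.3). The offset shrinks differences of dim genes. Where a gene had several kept probes, the probe of highest mean over the 3 arrays was used. This was so for 2364 genes, and in 9 of them probes were called in opposite directions. Named genes are the 15 highest, 15 lowest and 15 shared genes, Sox2, and members of the lists. Genes, lists and rules were chosen with earlier results of these data known. Counting error is not known for bead intensities, and the number of arrays limits precision. Labels put the transgenic 0 h arrays as treated, and times were taken from the titles. The alternatives changed normalization, background, thresholds, probes and arrays. A limma fit over 5 arrays was among them.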

Additional observations from a re-analysis of the deposited data

How the results depend on the processing

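Counts of genes higher and lower in ESC stayed within 1.5 times of 1728 and 1758 under 11 of 13 alternatives each. A 4-fold rule gave 645 higher and 817 lower. A limma fit with 1 mean each for ESC, wild-type NSC and wild-type MEF gave 3003 higher and 2976 lower at a Benjamini-Hochberg adjusted p under 0.05, and held all 1728 and 1758 genes. In that fit the lone ESC array is assumed to vary like the 0 h and 24 h arrays of the wild-type cells (2 residual degrees of freedom), so its p-values cover no spread between ESC cultures. The 54 shared genes became 20 with no background correction, 84 with the authors' log2 values, 20 with the 4-fold rule and 94 with undetected values as measured. A detection p of 0.05 gave 47 shared genes, of which 32 were among the 54. With NSC at 0 h alone, calls were 1900 higher, 1986 lower and 61 shared. With NSC at 24 h alone they were 1912, 1971 and 58. With TO_NSC at 0 h as a further neural array, 1446 of 1728 higher genes (83.7%), 1491 of 1758 lower genes (84.8%) and 48 of 54 shared genes remained. Of the 246 named genes called higher or lower, 0 changed direction under 6 alternatives of scaling and background, and 197 stayed past 2-fold with no background correction, the fewest of the 6. No paired analysis was possible because each condition has 1 array and every label gives the same replicate number. Dim genes are limited by signal over background: 546 genes higher and 539 lower in ESC have only a bound on their fold.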

Other observations

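Of 307 measured X-linked genes 90 (29.3%) were at least 2-fold lower and 50 (16.3%) at least 2-fold higher in ESC than on both NSC arrays, against 19.8% and 19.4% of all measured genes. Chromosome 18, an autosome, came close to the X shares, with 26.3% lower and 14.7% higher. Over the 199 X-linked genes detected on all 3 arrays the median log2 difference of ESC from the NSC mean was -0.43, against -0.01 over 6259 genes of all chromosomes. The autosomes ranged from -0.15 (chromosome 13) to 0.25 (chromosome 14). Rhox5, Rhox6, Rhox9 and Taf7l, all X-linked and listed as germline genes, were higher in ESC (Taf7l at 10.12 in ESC, undetected in NSC, at least 24.3-fold higher).

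Of 25 glial genes on the array 19 were detected in uninduced TO_NSC, with a summed intensity of 72200, against 21 detected and sums of 92000 and 85600 in wild-type NSC at 24 h and 0 h. Aldh1l1, read at 5.57 in TO_NSC at 0 h against 10.98 on both wild-type NSC arrays, and Gfap, undetected there (4.75), were chosen after their values were seen.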
